A study of Homo sapiens with 6 samples.

Results

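The genes described here encode PMEL, 4 proteins that act on it or bind it (MLANA, BACE2, CD63 and APOE), its relative GPNMB and BACE1, the relative of BACE2. They were chosen by their link to PMEL processing, with earlier results of these data known, and the peaks assigned to them were chosen from the positions in a deposited list of histone H3 lysine 27 acetylation (H3K27ac) peaks. A peak belonged to a gene when it overlapped the GENCODE release 44 gene body or lay within 50 kb of it, and it was called a promoter peak when it lay within 3 kb of any annotated transcript start of that gene. By this rule, 49 of the 30784 peaks belonged to the 7 genes, out of 20015 protein-coding genes in all. The positions of these peaks are therefore a description and carry no test.

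The samples described here came from the human line SU-CCS-1, which was established from a clear cell sarcoma. It carries the EWSR1::ATF1 fusion, in which the DNA-binding part of ATF1 is joined to EWSR1. The paper also used mouse and human tumours and a knockdown of the fusion, which are not part of these samples. Chromatin immunoprecipitation sequencing was labelled as 3 H3K27ac samples and 3 input samples of untreated cells, with no second cell type or treatment. The peaks of the H3K27ac samples reached the deposit as 1 merged list on hg38 with a start and an end for each peak and no score, read count or replicate column. The reads behind each peak, its height and the spread between replicates therefore cannot be read from the list, and a place without a peak means only that none was listed. The peak pattern was checked against 5 genes of clear cell sarcoma, the markers MITF, SOX10 and S100B and the fusion partners EWSR1 and ATF1. All 5 had a promoter peak, beside 63.4% of all protein-coding genes. None of 9 genes of blood, epithelium, muscle, endothelium and liver had one. Of the melanosomal genes read later, TYR, TYRP1, SLC45A2 and TRPM1 had none either.

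PMEL is a melanosome glycoprotein whose cleaved luminal fragments assemble into the amyloid fibrils on which melanin is laid down. A furin-type proprotein convertase first cuts the precursor, BACE2 then cuts next to the membrane and releases the fibril-forming part, and gamma-secretase clears the stub that stays behind. CD63, a tetraspanin, sorts PMEL into the vesicles inside the early melanosome, and APOE on those vesicles helps fibrils to form. MLANA binds PMEL and affects its maturation. GPNMB is the closest relative of PMEL, and BACE1 is the relative of BACE2 best known for cutting the amyloid precursor protein. H3K27ac marks active promoters and enhancers.

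The sequences below show the start regions and the parts of BACE2 that the motif counts turn on. Start regions came from RefSeq (GRCh38.p14) and run 5′ to 3′ on the strand of the gene, up to the base before the annotated start or before the first transcribed untranslated base. MLANA, BACE1, CD63, APOE and GPNMB matched the RefSeq promoter table and PMEL and BACE2 had no entry. Capitals mark matches to the motifs searched on both strands: TGACGTCA, the full ATF/CREB site; TGANNTCA, a flexible form that includes it; TGAGTCA, the AP1 site; CATGTG and CACGTG, E-boxes of the kind bound by MITF, the melanocyte regulator; ACAAAG, a SOX site; GCCNNNGGC, a TFAP2 site; and runs in which the triplets TGA and TCA together occur over 4 times, each at most 5 bases from the next. The first 3 sequences set a GC-rich start inside a wide peak (CD63), an AT-rich start inside a narrow peak (GPNMB) and a start without a peak (MLANA) side by side.
CD63, chr12:55729010-55729259, minus strand: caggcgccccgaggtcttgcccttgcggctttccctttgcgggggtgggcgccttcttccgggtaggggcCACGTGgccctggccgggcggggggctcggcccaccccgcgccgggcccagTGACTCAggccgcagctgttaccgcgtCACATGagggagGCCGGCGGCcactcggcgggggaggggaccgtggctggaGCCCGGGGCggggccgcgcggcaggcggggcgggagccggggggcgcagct
GPNMB, chr7:23246525-23246696, plus strand: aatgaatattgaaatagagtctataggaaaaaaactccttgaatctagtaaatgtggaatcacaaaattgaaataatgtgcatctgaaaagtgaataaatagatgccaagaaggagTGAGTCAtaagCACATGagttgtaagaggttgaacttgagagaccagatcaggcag
MLANA, chr9:5890639-5890888, plus strand: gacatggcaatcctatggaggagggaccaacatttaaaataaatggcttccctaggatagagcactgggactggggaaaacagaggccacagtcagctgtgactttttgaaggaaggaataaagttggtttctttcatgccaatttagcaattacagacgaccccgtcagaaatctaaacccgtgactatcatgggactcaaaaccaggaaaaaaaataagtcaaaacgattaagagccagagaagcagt

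The CD63 stretch (79.2% GC) held 1 CACGTG, 1 AP1 site, 1 CATGTG and 2 TFAP2 matches, and all 250 bases lay in its peak. The GPNMB stretch (34.3% GC, 172 bases, all in its peak) held an AP1 site and a CATGTG match close together. The MLANA stretch (42.8% GC) held no match to any of the 8 motifs, and none of its bases lay in a peak. Among 35116 RefSeq promoters of 250 bases, 4.2% held TGAGTCA, 9.42% CATGTG, 6.34% CACGTG and 19.8% GCCNNNGGC. A match to these letters is a description and does not show that a factor was bound.

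The next 3 sequences are stretches of 200 bases from BACE2 peaks on hg38, plus strand, chosen after the counts were seen: the window with most CATGTG matches outside the start region, the window with most triplet runs, and the intronic full ATF/CREB site.
BACE2 intron 6, chr21:41249139-41249338, CATGTG matches in capitals: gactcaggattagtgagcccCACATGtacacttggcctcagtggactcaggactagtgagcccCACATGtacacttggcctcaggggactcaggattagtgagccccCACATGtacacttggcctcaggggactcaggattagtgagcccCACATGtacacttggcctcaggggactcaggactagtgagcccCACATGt
BACE2 intron 1, chr21:41179037-41179236, triplet runs in capitals: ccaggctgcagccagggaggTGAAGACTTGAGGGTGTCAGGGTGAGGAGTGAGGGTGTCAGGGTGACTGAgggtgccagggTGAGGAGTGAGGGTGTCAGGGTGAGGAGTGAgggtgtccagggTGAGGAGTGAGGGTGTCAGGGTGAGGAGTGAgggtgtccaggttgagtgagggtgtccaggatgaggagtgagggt
BACE2 intron 2, chr21:41228145-41228344, full ATF/CREB site in capitals: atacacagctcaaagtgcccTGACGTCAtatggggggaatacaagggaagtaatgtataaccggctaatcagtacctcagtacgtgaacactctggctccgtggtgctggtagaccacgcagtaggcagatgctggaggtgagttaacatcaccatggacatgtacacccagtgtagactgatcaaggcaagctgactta

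The intron 6 window held 5 CATGTG matches in a tandem repeat, and the intron 1 window held 3 runs in a different tandem repeat. When all peaks were divided into 206386 tiles of 200 bases, 8.89% held CATGTG at least once and 0.155% held it 3 times or more. A triplet run was found in 0.937% of tiles, and a full ATF/CREB site in 0.37%.

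A promoter peak was present at 7 of the 7 genes, beside 63.4% of all protein-coding genes (12691 of 20015, 95% Wilson interval 62.74% to 64.07%, which covers counting only). When only the MANE Select start was used, the 1 reference transcript chosen per gene by RefSeq and Ensembl, 6 of the 7 genes had a peak within 3 kb, beside 60.3% of the 19061 genes that have such a transcript. MLANA was the gene without one. The MANE Select start itself lay inside a peak at 5 of the 7 genes, BACE1, BACE2, CD63, APOE and GPNMB, beside 54.1% of genes. A promoter peak was thus common to most genes of this cell line, and the 7 genes differed from each other in the amount of sequence in peaks.

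**Figure D1:**
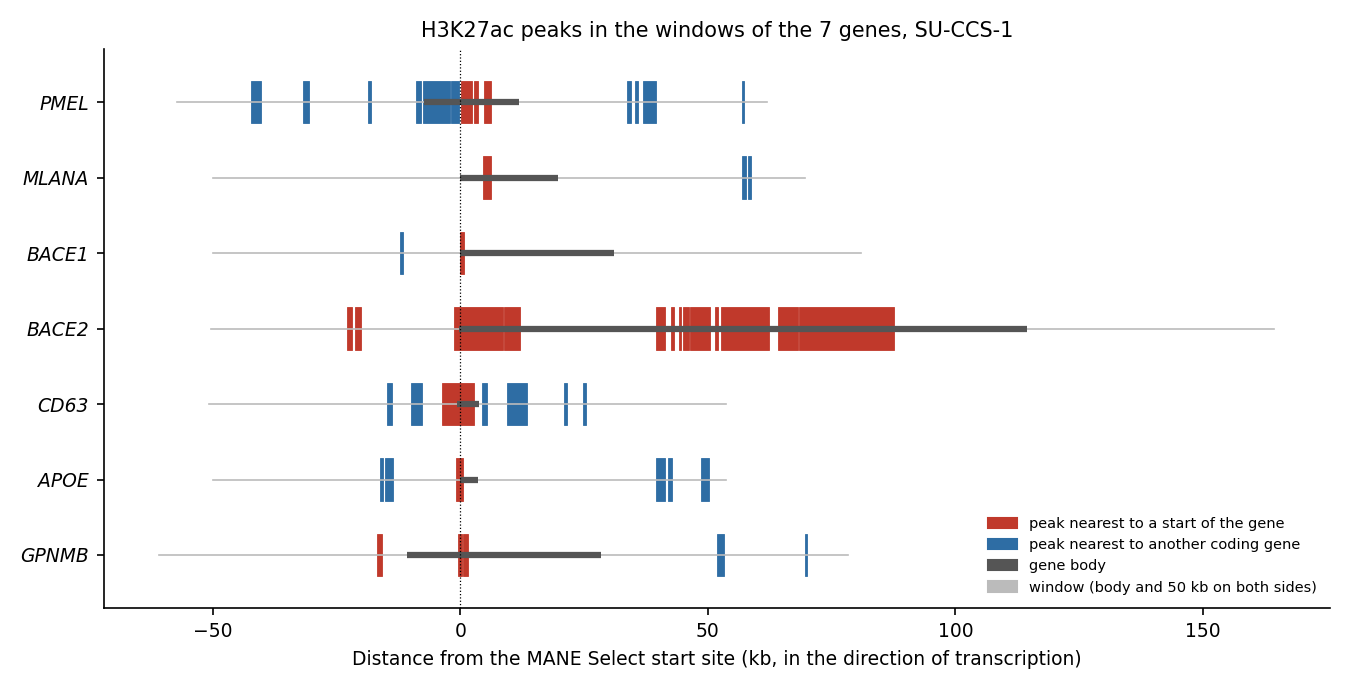
Peaks in the windows of the 7 genes by distance from the MANE Select start site in kb, read in the direction of transcription, with red for peaks nearest to a start of the gene and blue for peaks nearest to another coding gene. BACE2 has 13 peaks, all red, that reach 87.6 kb into the gene, whereas the 13 peaks of PMEL are mostly blue.

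BACE2 had by far the most sequence in peaks, 57.08 kb, which was 51.5% of the sum over the 7 genes. PMEL followed with 20.77 kb and CD63 with 16.08 kb. APOE had 7.64 kb, GPNMB 4.56 kb, MLANA 3.2 kb and BACE1 1.56 kb. The median over all protein-coding genes was 3.34 kb, so MLANA and BACE1 lay below it. In the order of all genes, BACE2 stood above 99.87%, PMEL above 95.75%, CD63 above 92.19%, APOE above 75.33%, GPNMB above 59.65%, MLANA above 48.59% and BACE1 above 30.68%. With no replicate values, no spread could be set against the steps in this order. Windows of long genes are longer, and BACE2 is the longest of the 7 at 114730 bases.

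Only part of this sequence could be tied to the gene itself. Of the 49 peaks, 23 had a start of the member gene as the nearest coding start, and 24 were promoter peaks of another coding gene, 7 of these also of the member. Counted over peaks nearest to the gene, BACE2 kept its 57.08 kb, CD63 had 6.58 kb, PMEL 4.51 kb, GPNMB 2.72 kb, MLANA 1.64 kb, APOE 1.29 kb and BACE1 0.82 kb. PMEL and CD63 changed places in the order, and APOE fell below GPNMB and MLANA. The 49 peaks had a median width of 1190 bases, and those of the whole list 1060 bases (quartiles 620 and 1760 bases).

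**Figure D2:**
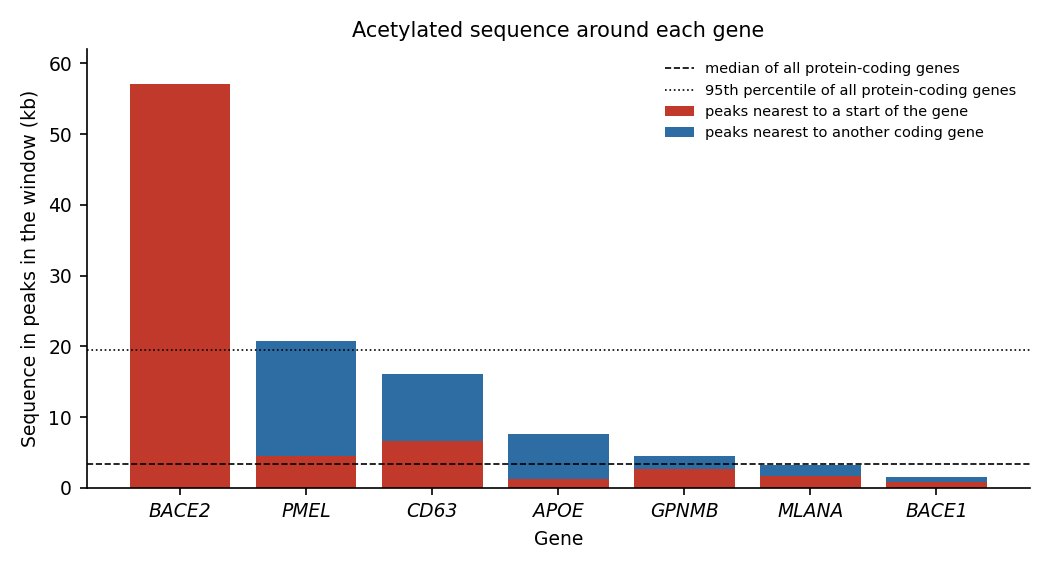
Sequence in peaks in the window of each gene in kb, as stacked bars split by whether the peak was nearest to the gene (red) or to another coding gene (blue), with lines at the median and the 95th percentile of all protein-coding genes. The bar of BACE2 reaches 57.08 kb and is wholly red, and the bars of MLANA and BACE1 lie below the median of 3.34 kb.

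Peaks of at least 5 kb met the bodies of 3 of the 7 genes, PMEL, BACE2 and CD63, beside 2.68% of all protein-coding genes. The one at PMEL lay upstream of its MANE Select start, over the neighbouring gene CDK2, and was nearest to CDK2. There were 647 such peaks in the list, 5 of them in the windows of the 7 genes and 3 of those 5 at BACE2. Peaks were then joined across gaps up to the distance the study used for super-enhancers, and the 17049 regions were ranked by summed peak width, since the list holds no signal. The ranked curve reached slope 1 at 7.97 kb, and 879 regions lay past this point. The same 3 genes met such a region, beside 7.58% of all protein-coding genes. When peaks lying wholly within 2.5 kb of a start were left out, PMEL no longer met one and BACE2 and CD63 still did. This rule cannot remove a peak wider than about 5 kb, so the widest peaks of all 3 genes stayed, also where they covered starts. The BACE2 region ranked 18, the PMEL region 220 and the CD63 region 232.

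The gene with most sequence in peaks among the 7 was BACE2, the sheddase that cuts PMEL beside the membrane (chr21:41167801-41282530, plus strand). Peaks covered 47% of its body, 53.91 kb. Among the 3666 protein-coding genes of at least 100 kb, whose median was 0.718%, 2 had a higher percentage. All 13 peaks of the window had BACE2 as the nearest coding gene, and 11 of them, with 54.86 kb, were centred in its introns.

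The promoter peak of BACE2 was 9.99 kb wide and ran from −1.31 to 8.68 kb relative to the MANE Select start. It ranked 99 of all peaks by width. A 3.13 kb peak followed after a gap of 220 bases, and no peak was listed over the next 27.46 kb of the 57.69 kb first intron. Peaks began again 39.5 kb into the gene and formed the joined region (chr21:41207651-41255800), in which 9 peaks summed to 41.74 kb of a span of 48.15 kb.

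The widest peak of this region measured 19.25 kb, from 68.4 to 87.6 kb after the start, and ranked 6 of the 30784 peaks. Beside it lay a peak of 9.8 kb, which ranked 102, and peaks of 4.12 and 4.02 kb. The peaks overlapped 7 of the 9 exons of the MANE Select transcript, the first to the seventh, and the last 26.7 kb of the gene held none. All 10 annotated BACE2 transcripts started inside a peak. These include 7 starts between 57316 and 84305 bases into the gene, of transcripts with no defined coding sequence or with a retained intron, so 3 of the inner peaks counted as promoter peaks only through them. The only other coding gene starting in the window, FAM3B, which encodes a secreted cytokine-like protein, had no promoter peak, and its MANE Select start lay 44950 bases from the nearest peak. Upstream, 2 peaks of 0.96 and 1.26 kb lay between −22.8 and −20.1 kb from the start.

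BACE2 lies on chromosome 21, which held 1.55% of all peaks but 7 of the 98 peaks wider than 10 kb (7.14%) and 4 of the 10 widest. Both counts include the 19.25 kb peak of BACE2 itself. Copy number was not measured here, and its part in the peaks of BACE2 was not tested.

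**Figure D3:**
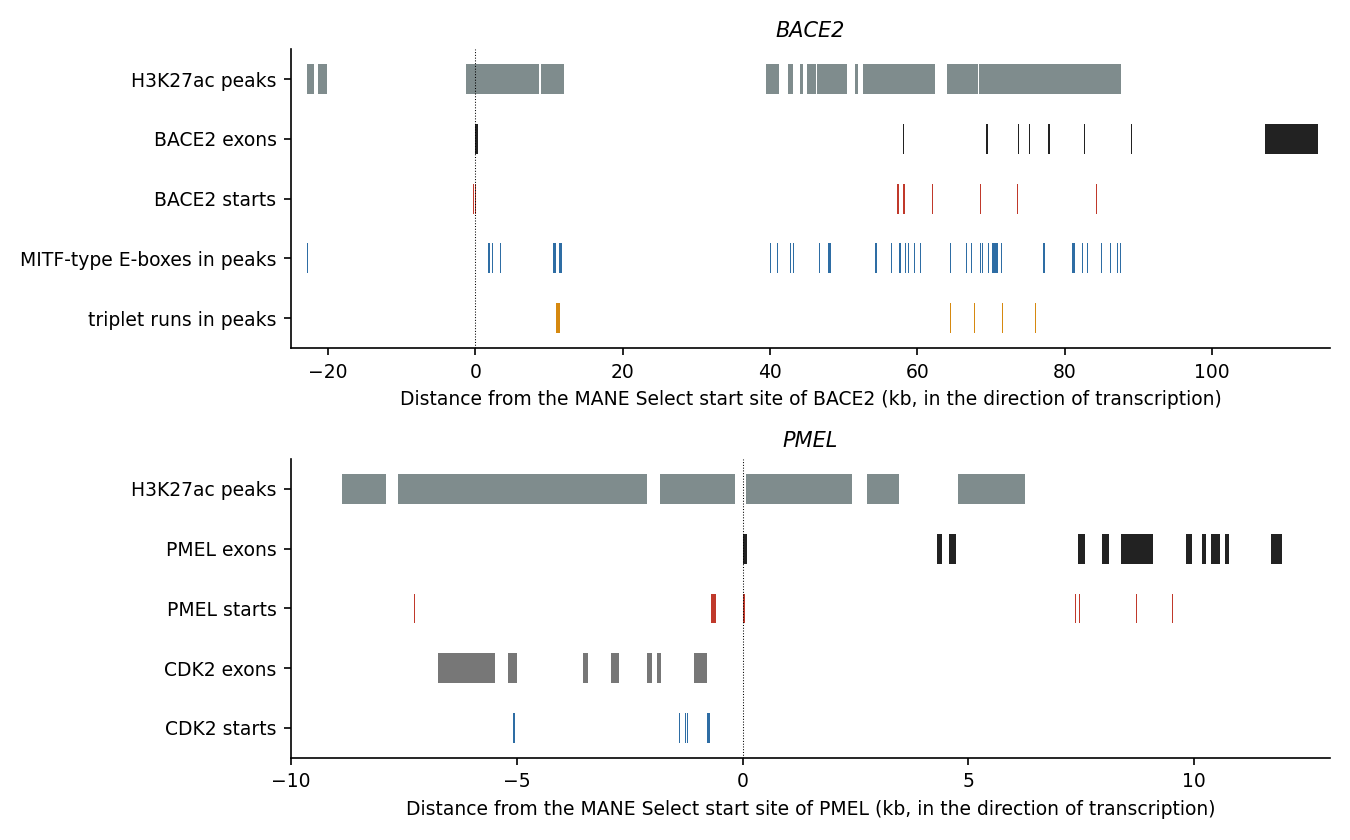
Maps of BACE2 (top) and PMEL (bottom) by distance from the MANE Select start in kb, with rows for peaks, exons of the MANE Select transcript and all annotated starts, and below them CATGTG matches (the MITF-type E-boxes) and triplet runs in BACE2 peaks, or the exons and starts of CDK2. The inner BACE2 starts all fall in peaks, 6 of the 10 runs lie in the 3.13 kb peak, and the PMEL start falls in the gap of 260 bases between 2 peaks.

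At PMEL (chr12:55954105-55973317, minus strand) the pattern was different. Its MANE Select start (position 55966042) lay in a gap of 260 bases, chr12:55965961-55966220, between a 2.33 kb peak over the end of the first exon and the first intron and a 1.66 kb peak upstream. The nearest peak was 82 bases away. Of the 19 annotated PMEL transcripts, 9 started in this gap and 6 inside a peak. Gaps of 50 to 1000 bases between neighbouring peaks numbered 6341 in the list, and 9.27% of them held a transcript start. In the windows of the 7 genes, 4 of 16 such gaps held one: the PMEL gap and gaps at DGKA, RAB5B and APOC2. The PMEL gap held 1 SOX match and none of the other 7 motifs.

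Upstream of the gap, the peaks of PMEL could not be told apart from those of CDK2, a cyclin-dependent kinase encoded on the opposite strand within the annotated PMEL body. The MANE Select starts of both genes lay 788 bases apart, and 4 of the 6 PMEL promoter peaks were also promoter peaks of CDK2. The widest of them, 5.53 kb (chr12:55968151-55973680, rank 505), lay between −7.64 and −2.11 kb from the PMEL start, over the CDK2 gene, and also counted as a promoter peak of RAB5B, a small GTPase of early endosomes. Peaks nearest to PMEL were 3 intronic ones of 2.33, 0.7 and 1.48 kb, the last reaching 6.25 kb into the gene.

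Peaks covered 37.8% of the MANE Select span of PMEL. They overlapped 1 of its 11 exons, the first, and that only at its end. The covered share of the span was above that of 95.6% of genes with such a transcript, whose median was 1.24%. The share was 46.8% at BACE2, 76.5% at CD63, 13.2% at APOE, 8.32% at MLANA, 4.29% at GPNMB and 2.44% at BACE1, and all 7 values lay above the median. The joined region of PMEL (chr12:55959791-56008240) held 9 peaks of 16.51 kb in all and ran on to the starts of RAB5B, SUOX and IKZF4. All 6 coding genes with a start in the PMEL window, PYM1, DGKA, CDK2, RAB5B, SUOX and IKZF4, had a promoter peak, beside 63.4% of all protein-coding genes. The 4 of CDK2 and 2 of those of RAB5B were shared with PMEL. The call of IKZF4 came from another start, since its MANE Select start lay 12803 bases from the nearest peak.

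CD63, the tetraspanin that sorts PMEL (chr12:55725323-55729707, minus strand), is a short gene that lay almost wholly under 1 peak. This peak was 6.58 kb wide (rank 327), ran from −3.76 to 2.82 kb relative to the MANE Select start, and covered 80.2% of the body. Of 16 annotated CD63 starts, 15 lay inside it. A second promoter peak of 0.92 kb lay 4.39 to 5.31 kb after the start and was nearest to RDH5, a retinol dehydrogenase. The other 5 peaks were nearest to ITGA7, GDF11 or an unnamed coding gene that spans BLOC1S1 and RDH5. One of these, of 4.21 kb, was a promoter peak of ITGA7, BLOC1S1 (a subunit of a complex of lysosome and melanosome biogenesis) and RDH5. CD63 lies on the same chromosome as PMEL, 224.4 kb from it, and the windows of both genes shared no peak.

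MLANA, a melanocyte antigen that binds PMEL (chr9:5890889-5910606, plus strand), had its MANE Select start 4512 bases from the nearest peak. Its 1 nearby peak was 1.64 kb wide and lay in intron 2, 4.51 to 6.15 kb after the start. The call of a promoter peak came from 2 transcripts without a defined coding sequence, whose starts lay 2890 and 524 bases from this peak. MLANA lies inside KIAA2026, a gene on the other strand, and the other 2 peaks of the window were nearest to KIAA2026.

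BACE1, the relative of BACE2, lay at the other end of the range (chr11:117285232-117316259, minus strand). It had a promoter peak of 0.82 kb from −0.074 to 0.745 kb relative to the MANE Select start, with no other peak in its body. This peak was also a promoter peak of CEP164, a centriole gene. Peaks thus covered 2.41% of the body of BACE1 and 47% of that of BACE2. Of 18 annotated BACE1 starts, 6 lay in the peak and the other 12 were at least 14774 bases from one. The second peak of the window, of 0.74 kb, was a promoter peak of CEP164 alone, 11.5 kb upstream.

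GPNMB, the relative of PMEL (chr7:23235967-23275108, plus strand), had a 0.7 kb peak over its MANE Select start and a 0.98 kb peak behind it, with a gap of 330 bases between them. Of its 15 annotated starts, 7 lay inside the first of these. Another peak, 1.04 kb wide, lay between −16.9 and −15.8 kb from the start and had GPNMB as nearest coding gene. The other 2 were promoter peaks of MALSU1 and IGF2BP3. The widest peak nearest to each gene measured 2.33 kb at PMEL and 1.04 kb at GPNMB, and the MANE Select start of GPNMB lay inside a peak whereas that of PMEL did not.

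APOE, the apolipoprotein of the fibril-forming vesicles (chr19:44905791-44909393, plus strand), had a single peak of 1.29 kb at its start, from −0.815 to 0.474 kb relative to it, and 4 of its 5 annotated starts lay inside. The other 5 peaks of the window were promoter peaks of TOMM40, APOC2, APOC4 or CLPTM1. APOC1, the next gene of the apolipoprotein cluster, had no promoter peak, and its start lay 8338 bases from the nearest one. Across all 7 windows, 25 of 28 coding neighbours had a promoter peak, beside 63.4% of all protein-coding genes. The 3 without were FAM3B, METTL7B and APOC1. Some neighbours overlap and were called from the same peak, as APOC4, APOC2 and their joint entry APOC4-APOC2 were.

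Some calls lay close to the limits of the rule. Among annotated starts near the 3 kb limit, a PMEL start at 2449 bases, a GPNMB start at 2393 bases and an MLANA start at 2890 bases from a peak were inside it, and a PMEL start at 3252 bases was outside. Near the 50 kb limit, the farthest peaks inside were 45.1 kb from APOE and 45 kb from PMEL, and the nearest ones outside were 51.8 kb from BACE1, 52.1 kb from BACE2 and 52.7 kb from GPNMB.

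Motif matches were counted over the 110.9 kb of peaks in the 7 windows. CATGTG occurred 80 times, 7.21 per 10 kb (95% Poisson interval 5.72 to 8.98, counting only), and in all peaks it occurred 5.21 times per 10 kb. GCCNNNGGC was lower, at 4.87 per 10 kb (3.66 to 6.35) beside 8.02 in all peaks. For both motifs the matching value of the whole list lay within the interval when only distal peaks or only peak centres were scanned. The GC content was 51.6% in the peaks of the 7 genes and 54.7% in all peaks. For the other motifs the value of all peaks lay within the interval: TGACGTCA at 0.271 beside 0.191 per 10 kb, TGANNTCA at 5.59 beside 4.66, TGAGTCA at 1.44 beside 1.5, CACGTG at 2.07 beside 1.92, ACAAAG at 5.14 beside 6.5, and triplet runs at 0.902 beside 0.527.

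BACE2 supplied most of the CATGTG matches, 60 of 80. Its peaks held 10.5 per 10 kb (8.02 to 13.5), and PMEL peaks held 5 matches, 2.41 per 10 kb (0.782 to 5.62). The rest of the BACE2 body, outside peaks, held 7.23 per 10 kb (5.26 to 9.71), and peaks of the whole list far from any annotated start held 7.35. The GC content of these 3 sets, BACE2 peaks, the rest of its body and the distal peaks, was 49.2%, 42.6% and 48.8%. Within the joined region of BACE2 the value was 12 per 10 kb, above that of 95% of the 879 regions past slope 1 (median 6.19), whereas the PMEL region had 2.42 and stood above 8.99% of them.

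Part of the BACE2 count came from the tandem repeat printed above. A stretch of 265 bases, chr21:41249159-41249423, in the 19.25 kb peak held 7 CATGTG matches spaced 43 or 44 bases apart. Without this stretch the BACE2 peaks held 53 matches, 9.33 per 10 kb (6.99 to 12.2). The stretch also lies in the joined region of BACE2, whose value and place among the regions include it and were not recomputed.

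All 10 triplet runs of the 7 genes lay in BACE2 peaks, 6 of them in the 3.13 kb peak at chr21:41177061-41180190 in intron 1 and 2 each in the 4.12 and 19.25 kb peaks. The BACE2 body outside peaks held 4 runs, 0.658 per 10 kb (0.179 to 1.68), and the peaks 1.75 per 10 kb (0.84 to 3.22), so the intervals overlapped. The full ATF/CREB site occurred 3 times, in intron 2 and exon 3 of BACE2 and in the 5.53 kb peak upstream of PMEL. No full site was found in the peaks of the other 5 genes.

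**Figure D4:**
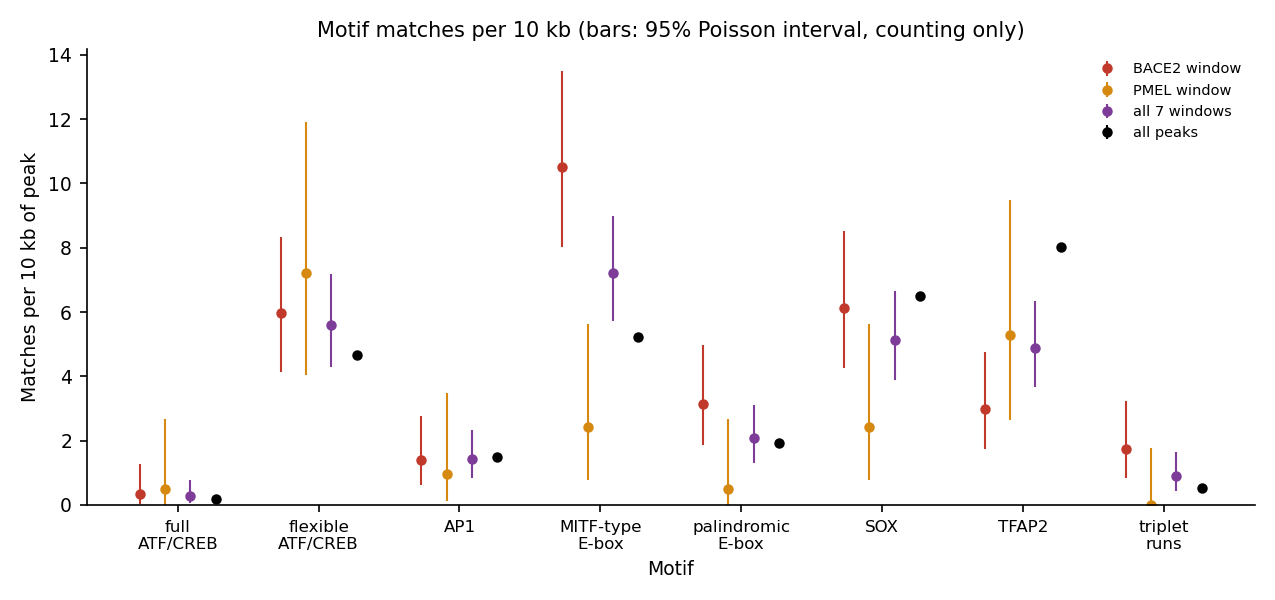
Motif matches per 10 kb of peak for the windows of BACE2, PMEL and all 7 genes and for all peaks of the list, as points with bars for the 95% Poisson interval (counting only). The MITF-type E-box, CATGTG, lies at 10.5 per 10 kb in BACE2 peaks, 2.41 in PMEL peaks and 5.21 in all peaks.

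Other genes of PMEL processing were read from lists, as were relatives and partners of the 7 genes and melanocyte genes. Each count stands beside the 63.4% of all protein-coding genes that had a promoter peak. Amounts in peaks are totals over the window of each gene, flanks included, and were not split by nearest gene. The lists are short, and the 95% Wilson interval of each share, which covers counting only, includes 63.4% or, for the 7 secretase genes, begins at 64.57%. The 4 proprotein convertases, FURIN, PCSK5, PCSK6 and PCSK7, all had a promoter peak, with a median of 4.75 kb in peaks, and none met a region past slope 1. PCSK6 had the most, 12.2 kb. The 7 secretase genes listed also all had one, with a median of 7.56 kb: the gamma-secretase subunits PSEN2, NCSTN, APH1A, APH1B and PSENEN, and the alpha-secretases ADAM10 and ADAM17. APH1A had 14.96 kb and PSEN2 11.24 kb in peaks in their windows, and both met a region past slope 1. The only promoter peak of APH1A was 2160 bases wide.

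Among the 6 pepsin-like aspartic proteases listed, the family of BACE1 and BACE2, 4 had a promoter peak: both BACE genes and, of the other 4, CTSD and NAPSA. CTSD, the lysosomal cathepsin D, had 21.34 kb in peaks, with 98% of its body covered, and met a region past slope 1 as BACE2 did. CTSE and PGC had no promoter peak, and that of NAPSA was 0.53 kb wide and 3102 bases from its MANE Select start. Of the BACE substrates of the APP family, APP had 18.43 kb and APLP2 5.13 kb in peaks and a promoter peak each, and APLP1 had none.

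Of the 7 other tetraspanins, 5 had a promoter peak. CD151 had 27.66 kb in peaks in its window, more than CD63, and CD81 had 12.91 kb. The bodies of CD151 and CD63 were covered alike, at 83.9% and 80.2%. The widest peak in the body was 3250 bases at CD151 and 6580 bases at CD63. CD53 and TSPAN10 had no promoter peak. Of the 7 receptors and lipid partners of APOE listed, LRP1, LRP8, VLDLR and ABCG1 had a promoter peak, and SORL1, ABCA1 and LCAT had none, so 4 of 7 stood beside 63.4% of all genes.

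The regulators of melanocyte genes had a promoter peak at 6 of 7. SOX10 had 60.95 kb in peaks, including 1 peak of 18040 bases, and MITF had 21.18 kb, so the amount at BACE2 lay just under that at SOX10. PAX3 and LEF1 had 1.64 and 0.52 kb, and TFEC had no promoter peak. The call of PAX3 came from other transcripts, since its MANE Select start lay 7478 bases from the nearest peak. Of the 8 melanosomal genes beside PMEL, DCT, OCA2, GPR143 and RAB27A had a promoter peak. TYR, TYRP1, SLC45A2 and TRPM1 had none, and the MANE Select start of GPR143 lay 20204 bases from the nearest peak. OCA2, a melanosomal transporter, had 37 peaks with 55.06 kb in its window, flanks included, close to the amount at BACE2. Peaks covered 8.22% of the OCA2 body and 47% of that of BACE2.

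**Figure D5:**
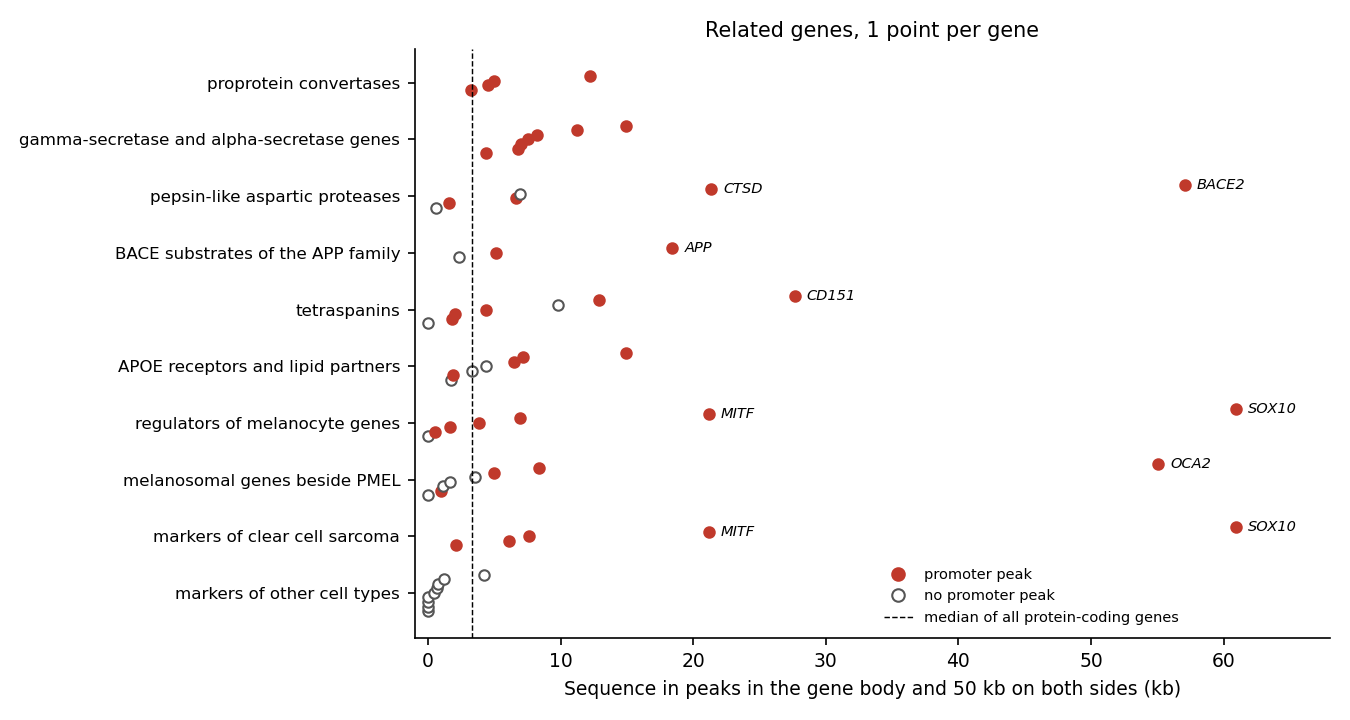
Sequence in peaks in kb for each gene of the related lists (gene body and 50 kb on both sides), with filled points for genes with a promoter peak and open points for genes without, and a line at the median of all protein-coding genes. BACE2, SOX10 and OCA2 lie above 50 kb and every other gene shown lies below 28 kb, and the 9 markers of other cell types are all open.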

How the data were processed

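H3K27ac ChIP-seq was labelled for 3 ChIP and 3 input samples of SU-CCS-1. The submitters' processing notes name BWA 0.7.10-r789 and MACS2 2.2.6. Per the methods of the study, reads were aligned to hg38, duplicates removed, broad peaks called against input and denylisted regions left out. Replicates were averaged into signal tracks, and how they were combined into the peak list is not given in the sources used here. The peak list used here held positions only, in 4 columns with coordinates on a grid of 10 bases. The reads behind a peak cannot be recovered from it, and no test was run. According to the paper, the raw data were deposited as well, and they were not used here. The methods give only an approximate sequencing depth for the libraries.

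Positions were compared with GENCODE 44 in Python 3.11.15 with NumPy 2.4.6, SciPy 1.17.1 and pysam 0.24.0. The chromosome Y copies of genes shared with chromosome X were left out. Any shared base counted as overlap. The nearest coding gene was taken from the peak midpoint. Distal peaks lay over 3 kb from every annotated start, noncoding transcripts included. The scripts were tested on simulated data. Members and gene lists were chosen with earlier results of these data known. Named were the 7 members, coding neighbours in their windows and all list genes, of which some are not reported here. The alternatives varied windows, starts, width, stitching and the sequence scanned.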

Additional observations from a re-analysis of the deposited data

How the results depend on the processing

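No paired analysis was possible because replicates are not kept apart in the list of peaks, and for the same reason no replicate could be left out in turn. Across its 5 alternatives, the number of members with a promoter peak was between 5 and 7. MLANA lost its call when only starts of protein-coding transcripts or only the MANE Select start counted, the latter chosen after seeing the data, and BACE1 and GPNMB lost theirs when only the widest 50% of peaks counted. The members at a region past slope 1 were the same 3 when peaks were joined within 5 kb or ranked by span. They were BACE2 and CD63 when peaks lying wholly within 2.5 kb of a start were left out, which keeps every peak wider than about 5 kb. The 49 peaks became 22 in gene bodies alone, 25 among the widest 50% and 23 when the member had to be nearest.

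Motif counts also moved, and the cause was not tested. In distal peaks alone, with 14.43 kb, values per 10 kb were 0 for TGACGTCA, 1.39 for TGANNTCA, 0.693 for TGAGTCA, 9.70 for CATGTG, 3.47 for GCCNNNGGC and 0 for triplet runs. In the central 200 bases of each peak they were 1.02 for TGACGTCA, 4.08 for TGANNTCA, 9.18 for CATGTG, 1.02 for CACGTG, 7.14 for GCCNNNGGC and 0 for triplet runs. CATGTG stayed higher and GCCNNNGGC lower than in the matching peaks of the whole list under both settings. With 5 to 14 matches each, the intervals were wide and included the values of the whole list. All distal peaks had 7.35 and 3.84, inside the member intervals of 5.3 to 16.3 and 1.13 to 8.09. The centres of all peaks had 4.73 and 9.52, inside 4.2 to 17.4 and 2.87 to 14.7. TGANNTCA in distal peaks, from 2 matches, lay below the 6.42 of all distal peaks (interval 0.168 to 5.01). Of the values for single genes or lists, 62 kept within 1.5 times of the reported one and 48 did not.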
